A study of Mus musculus with 2 samples.

Results

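The miR-183 cluster consists of 3 microRNA (miRNA) genes, Mir183, Mir96 and Mir182, which were found by symbol among the 2202 annotated miRNA genes counted in this series. All 3 lie on the minus strand of mouse chromosome 6 in build mm10 (GENCODE M21). Small RNAs had been sequenced from the hippocampus of B6CASTF1/J females at an age of 2 months. These are F1 hybrids of the C57BL/6J and CAST/EiJ strains that carry no transgene or treatment named in the labels. The tissue is labelled a layer of hippocampus, and the layer is not named. There is 1 group of 2 libraries, biological replicates 1 and 2, which have separate tissue records and share 1 donor record. No label says that the tissue came from separate animals, so differences between the libraries may in part be technical. No condition can be compared. The comparisons are between the 3 genes within a library and between the libraries.

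The 3 miRNAs are known to be cut from a common primary transcript by Drosha and Dicer, the nucleases of miRNA maturation, and to repress mRNAs that pair with their seed, bases 2 to 8 of the mature strand. The cluster is best known from sensory cells, among them photoreceptors, hair cells of the inner ear and olfactory and dorsal root sensory neurons. Changes in the seed of miR-96 cause progressive hearing loss in mice and humans.

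The mature sequences are shown because their seeds relate the 3 genes to each other and show which other miRNAs could be taken for them. They were copied from RefSeq (build GRCm38.p6), where both arms of all 3 hairpins were found, and are written 5′ to 3′ with the seed in capitals.
miR-183-5p: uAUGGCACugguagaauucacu
miR-96-5p: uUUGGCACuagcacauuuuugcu
miR-182-5p: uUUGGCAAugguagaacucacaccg
miR-183-3p: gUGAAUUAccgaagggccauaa
miR-96-3p: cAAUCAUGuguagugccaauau
miR-182-3p: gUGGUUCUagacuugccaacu
The 5p arms have similar seeds that are not identical. Counted from 1 at the 5′ end, the seed of miR-96-5p differs from that of miR-183-5p by A2U, and the seed of miR-182-5p differs from that of miR-96-5p by C8A. The seeds of miR-183-5p and miR-182-5p differ by both A2U and C8A. Over the whole mature strand, miR-183-5p and miR-182-5p are the closest pair, with 18 of 22 positions identical, against 13 of 22 for miR-183-5p and miR-96-5p and 12 of 23 for miR-96-5p and miR-182-5p. The 3p arms have little in common, with 7 identical positions in each of the 3 pairs. The deposited tables count a hairpin as a whole, with its 5p and 3p arms added together.

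Beyond the similar seeds, the hairpins share only short stretches with other miRNA genes. The longest stretch that the Mir183 hairpin shares with any of the other 2201 miRNA genes, on either strand, is 14 bases, and for Mir96 and Mir182 it is 11 bases. Reads with several mapping places are credited to no gene in the deposited tables, and no other miRNA gene holds a copy of a whole mature strand of these 3 genes. The rest of the genome was not searched.

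Mir183 (ENSMUSG00000065619.2) occupies positions 30169668 to 30169737 of chromosome 6. Mir96 (ENSMUSG00000065586.1) lies 116 bases downstream of it at 30169446 to 30169551, and Mir182 (ENSMUSG00000076361.1) a further 3453 bases on, at 30165918 to 30165992. The cluster spans 3820 bases, and no other annotated gene overlaps that span, so none of the 3 hairpins is annotated as exonic or intronic to a host gene. The non-coding RNA gene Rncr4, known from retina, starts 3156 bases upstream on the opposite strand. The protein-coding gene Nrf1, which encodes a regulator of genes for mitochondrial proteins, lies 12460 bases away on one side. Ube2h, which encodes a ubiquitin-conjugating enzyme, lies 41552 bases away on the other.

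Mir183 and Mir182 were detected in both libraries at low levels, Mir96 exceeded the level that a count of 0 allows in replicate 1 only, and all 3 had lower values in replicate 2. The unit of level is CPM, counts per 1000000 counts on the sense strand of miRNA genes, which totalled 4517648 in replicate 1 and 5979247 in replicate 2. A count of 0 would have allowed up to 3 counts, which is 0.664 CPM for replicate 1 and 0.502 for replicate 2. Intervals of levels are 95% Wilson intervals. All intervals cover counting error only and leave out the spread between libraries. They also treat reads as independent molecules, which amplified reads are not, so they may be too narrow.

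Mir183, whose product gives the cluster its name, had 625 counts in replicate 1 and 327 in replicate 2. These correspond to 138.3 CPM (127.9 to 149.6) and 54.7 CPM (49.1 to 60.9), with a mean of 96.5 ± 59.2 CPM (SD, n = 2). By mean CPM it stood at rank 198 of the 2202 genes and at rank 228 in replicate 2. It was the most abundant gene of the cluster in both libraries.

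Mir182, at the far end of the cluster, had 472 and 189 counts. Its level was 104.5 CPM (95.5 to 114.3) in replicate 1 and 31.6 CPM (27.4 to 36.4) in replicate 2, with a mean of 68.0 ± 51.5 CPM (SD, n = 2). By mean CPM it held rank 218, with rank 197 in replicate 1 and rank 250 in replicate 2. Its interval lay below that of Mir183 within each library, although the means of the 2 genes differ by less than the spread between the libraries.

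Mir96, the member tied to hearing loss, was by far the least abundant, with 32 counts in replicate 1 and 3 in replicate 2. Its level was 7.08 CPM (5.02 to 9.999) in the first library and 0.502 CPM (0.171 to 1.48) in the second, with a mean of 3.79 ± 4.65 CPM (SD, n = 2). The SD exceeds the mean, and the count of 3 in replicate 2 is the count that a value of 0 would still allow, so its level in that library is poorly determined. Mir96 ranked 380 by its mean, 326 in replicate 1 and 564 in replicate 2.

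**Figure D1:**
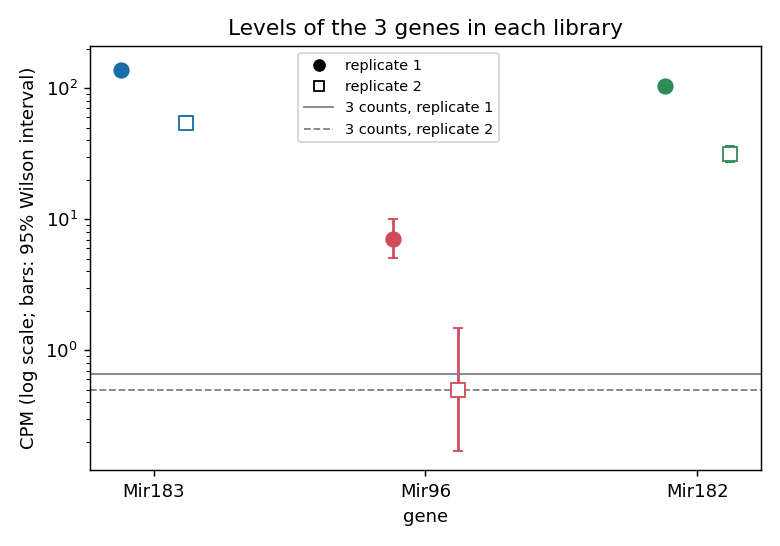
Level of each gene in CPM, on a log scale, in replicate 1 (filled circles) and replicate 2 (open squares), with 95% Wilson intervals and grey lines at 3 counts. Mir183 and Mir182 lie between 31.6 and 138.3 CPM, and Mir96 lies at 7.08 CPM in replicate 1 and on the line of 3 counts in replicate 2.

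The order of the levels was thus Mir183, Mir182, Mir96 in both libraries. A small RNA is read whole, so counts were not divided by length, and the order was the same per base of hairpin, at 8.93, 6.29 and 0.302 counts per base in replicate 1 and 4.67, 2.52 and 0.0283 in replicate 2. Ligation and amplification of small RNAs are known to favour some sequences over others, and the levels of different miRNAs are therefore relative. Summed over the 3 genes, the cluster had 1129 and 519 counts, which is 249.9 CPM (235.8 to 264.9) and 86.8 CPM (79.6 to 94.6). This is 0.0250% and 0.00868% of the miRNA counts. For scale, the 420 genes that reached 10 counts in each library had a median level of 85.3 CPM, and 1428 genes had no count in either library.

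Nearly all reads at the 3 genes were on the sense strand. The antisense column holds 1 count for Mir183 in replicate 1 and 0 for the other genes and libraries.

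Within the cluster the proportion of Mir183 was higher in replicate 2 and that of Mir96 lower, whereas the intervals of Mir182 overlapped. Mir183 made up 55.4% of the cluster's counts in replicate 1 (95% Wilson interval 52.4 to 58.2) and 63.0% in replicate 2 (58.8 to 67.0). Mir182 made up 41.8% (39.0 to 44.7) and 36.4% (32.4 to 40.6). Mir96 made up 2.83% (2.01 to 3.97) and 0.578% (0.197 to 1.69). Mir183 and Mir182 thus supplied nearly all counts of the cluster in each library.

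Mir183 exceeded Mir182 by 1.32-fold in replicate 1 (95% exact interval 1.17 to 1.495) and by 1.73-fold in replicate 2 (1.44 to 2.08). The change of this ratio from replicate 1 to replicate 2, as an odds ratio, was 1.31 with an exact interval of 1.05 to 1.63. The balance of the 2 abundant members therefore moved by a factor whose interval lies just above 1. Mir183 exceeded Mir96 by 19.5-fold (13.7 to 28.8) and by 109-fold (37.0 to 531.3), and Mir182 exceeded Mir96 by 14.8-fold (10.3 to 21.8) and 63-fold (21.2 to 308.2). Relative to the other members together, Mir96 was lower in replicate 2, with an odds ratio of 0.199 and an interval of 0.0389 to 0.642. At the proportion seen in replicate 1, Mir96 would have had 15.1 counts in replicate 2, where 3 were found. These intervals were computed for 3 genes chosen with their values known and no p-value is given for them.

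The cluster as a whole was 2.88-fold lower in replicate 2 (95% exact binomial interval 2.59 to 3.201). The fold was 2.53 for Mir183 (2.21 to 2.90), 3.31 for Mir182 (2.79 to 3.93) and 14.1 for Mir96 (4.42 to 72.1). In bulk tissue, fewer cells that express a miRNA and less of it per cell cannot be told apart. The interval of Mir182 overlaps that of Mir183, and that of Mir96 lies above both.

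**Figure D2:**
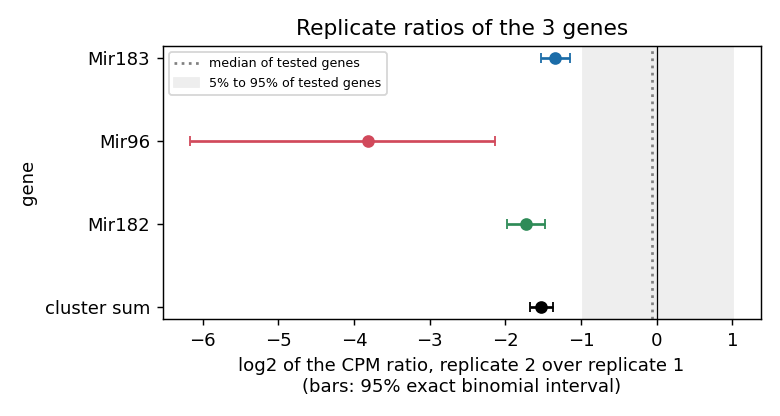
Log2 of the CPM ratio of replicate 2 over replicate 1 for each gene and for the summed counts, with 95% exact binomial intervals, beside the median (dotted line) and the range from 5% to 95% (grey band) of the 420 tested genes. All 4 values lie below the band, which ends at -0.98, and the interval of Mir96 is the widest. The median and the band were computed on log2(CPM + 0.5), the points without the added 0.5 CPM. With it, all 4 values also lie below the band, with Mir96 at -2.92.

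To set these ratios against the other miRNAs, every gene that reached 10 counts in each library was tested for a different share of the miRNA counts. Fisher's exact test, two-sided, was used with Benjamini-Hochberg adjustment over the 420 genes tested, and it compares 2 libraries and no condition. Like the intervals, its p-values cover counting error only, treat reads as independent and leave out the spread between libraries. Mir183 and Mir182 passed the filter, and both were lower in replicate 2, at adjusted p = 5.9e-44 and 2.8e-48 by Fisher's exact test. Calls were common, since 56.9% of the tested genes differed between the libraries and 29.8% were lower in replicate 2. Mir96 was left out because of its 3 counts in replicate 2. With a minimum of 1 count in both libraries it was also lower, with an adjusted p of 1.1e-08 by Fisher's exact test, where 20.4% of 627 genes were called lower.

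Both ratios were far from those of most genes. On the scale log2(CPM + 0.5), the log2 ratio of replicate 2 over replicate 1 was -1.33 for Mir183 and -1.71 for Mir182, beside a median of -0.07 over the 420 tested genes and a range from 5% to 95% of -0.98 to 1.01. Both members were among the 4.52% of tested genes that were lower by 2-fold or more on that scale. Of the tested genes, 12 had a lower ratio than Mir183 and 4 a lower ratio than Mir182. Those 4 were Mir185 at -2.94, Mir200c at -2.53, Mir153 at -1.92 and Mir505 at -1.82. On the same scale the log2 ratio of Mir96 was -2.92, a value that depends on the added 0.5 CPM.

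Most genes of a like level had other ratios. Of the 65 other tested genes within 2-fold of the mean CPM of Mir183, 5 had a lower ratio, namely Mir200c, Mir505, Mir182, Mir206 and Mir429. Of the 63 near the level of Mir182, 2 had a lower ratio, Mir200c and Mir505. The median log2 ratio of these sets was -0.08 and -0.10.

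**Figure D3:**
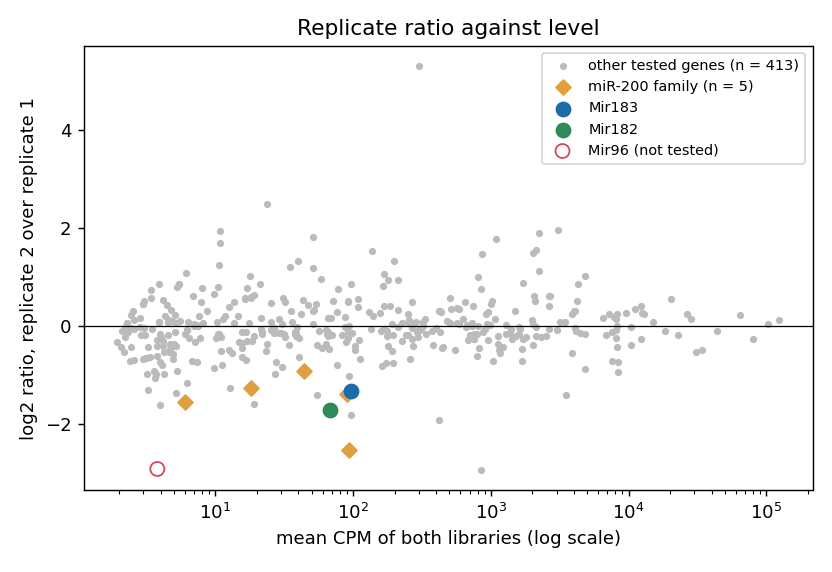
Log2 ratio of replicate 2 over replicate 1, on log2(CPM + 0.5), against mean CPM on a log scale, 1 point a gene. Mir183 (-1.33), Mir182 (-1.71) and the untested Mir96 (-2.92, open circle) lie below the bulk of the tested genes (grey), near the 5 genes of the miR-200 family (diamonds).

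The miRNA genes next to the cluster on chromosome 6 lie far from it. The nearest miRNA gene on one side, Gm23049, 177429 bases away, had no count in either library and so gives no ratio. On the other side Mir335, 571562 bases away in the imprinted gene Mest, stood at 3332 and 3520 CPM and was slightly higher in replicate 2 (adjusted p = 7.5e-07 in Fisher's exact test, at a log2 ratio of 0.08).

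Neighbouring miRNA genes often share a precursor, so the cluster was set beside the other groups of tested miRNA genes on 1 strand with gaps of at most 10 kb. There were 43 such groups, of which 28 were pairs, and the pair of Mir182 and Mir183 was one of them because Mir96 was not tested. The log2 ratios of its 2 genes lay 0.38 apart. Over the 28 pairs the distance ranged from 0.10 to 2.53 with a median of 0.65, and 9 pairs lay closer together. Mir182 and Mir183 thus lay closer together than the median pair, each at a low ratio. This holds for the 2 tested members only, since Mir96, at -2.92 on the same scale, lay further from both. By the median log2 ratio, 1 of the 43 groups was lower, Mir141 with Mir200c at -2.04, against -1.52 for Mir182 with Mir183. In these 2 groups alone all tested genes were lower by 2-fold or more.

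**Figure D4:**
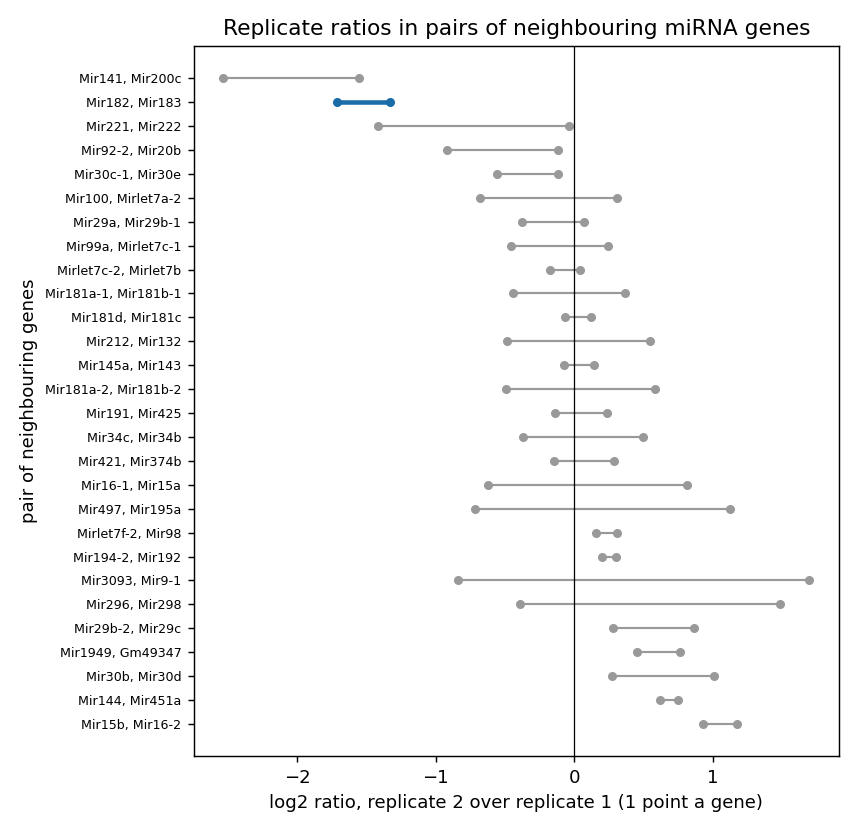
Log2 ratios of replicate 2 over replicate 1 in the 28 pairs of neighbouring tested miRNA genes, ordered by their median, with 1 point a gene and a line joining each pair. Mir182 with Mir183 (blue) comes next after Mir141 with Mir200c, the lowest pair, and its points lie 0.38 apart.

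The genes with the replicate ratio most like that of the summed cluster (-1.52) were sought among the 314 other tested genes with a mean of at least 10 CPM. The 5 closest were Mir1930 at -1.60, Mir222 at -1.42, the muscle miRNA Mir206 at -1.41, Mir429 of the miR-200 family at -1.40 and Mir592 at -1.28. Likeness here rests on 1 ratio between 2 libraries, and the genes were spread over chromosomes 10, X, 1, 4 and 6. Mir592 lies 2229168 bases from the cluster.

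The miR-200 family, known from epithelia and from olfactory neurons, moved in the same direction. The family was chosen with earlier results of these data known. All 5 of its genes were tested and passed as lower in replicate 2, where 29.8% of all tested genes did. Mir429, Mir200a and Mir200b are neighbours on chromosome 4, and Mir141 and Mir200c on chromosome 6, so the 5 genes are not independent. Their log2 ratios had a median of -1.40 and went from -2.53 for Mir200c to -0.93 for Mir200b, again beside -0.07 over all tested genes. Mir200c had 158.3 CPM in the first library and 26.9 in the second, and Mir429 had 131.5 and 49.5 CPM. None of the 5 was at 0 in a library. Together they reached 382.3 CPM in replicate 1 and 119.6 in replicate 2, 3.197-fold lower, beside 2.88-fold for the miR-183 cluster.

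The miRNAs of the Hox clusters, known from hindbrain and spinal cord, were at lower levels and fewer of them were tested. All tested ones had negative log2 ratios. Of 6 genes 3 were tested, of which Mir10b (log2 ratio -0.80) and Mir196b (-1.38) were lower and Mir10a (-0.22) did not pass, again beside 29.8% of all tested genes called lower. Mir196a-1 was at 0 counts in both libraries, Mir196a-2 at 9 and 0, and Mir615 at 6 and 3. Together the 6 genes reached 37.4 CPM in replicate 1 and 21.4 in replicate 2, 1.75-fold lower. Whether tissue from outside the hippocampus, present in different amounts, has a part in the ratio of the miR-183 cluster was not tested.

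The lists for other cell types had median log2 ratios nearer to 0. The neuron-enriched list had 11 tested genes, led by Mir132 and Mir128-1, with a median log2 ratio of -0.06. Of these, 6 were called lower and 1 higher, where 125 of the 420 tested genes (29.8%) were called lower and 114 higher. Small differences are called at high counts, as for Mir138-1, which had 18609 and 23872 counts at a log2 ratio of -0.05. The summed level was 49807 CPM in replicate 1 and 54274 in replicate 2. Mir132, the gene called higher, went from 16627 to 24242 CPM. None of these 11 genes was lower by 2-fold or more, where 4.52% of all tested genes were. The list was chosen with earlier results of these data known and does not stand for all miRNAs of neurons. The lists of oligodendrocytes, endothelial and mural cells, microglia and leukocytes, choroid plexus and ependyma, and red cells had medians from -0.18 to 0.62. No tested gene of theirs was lower by 2-fold or more, beside the same 4.52%. That share is too low for lists this short to be told apart from all tested genes by it. Of the 3 eye miRNAs, chosen because the miR-183 cluster is abundant in retina, 2 were tested. Neither was called lower, where 29.8% of all tested genes were, and a list of 2 cannot be told apart from that share. Mir204, which also belongs to the choroid plexus and ependyma list, was higher in replicate 2 (adjusted p = 1.1e-54 in Fisher's exact test, at a log2 ratio of 0.45), Mir184 stood at 39.4 and 38.5 CPM (adjusted p = 0.906), and Mir211 had 5 and 13 counts.

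**Figure D5:**
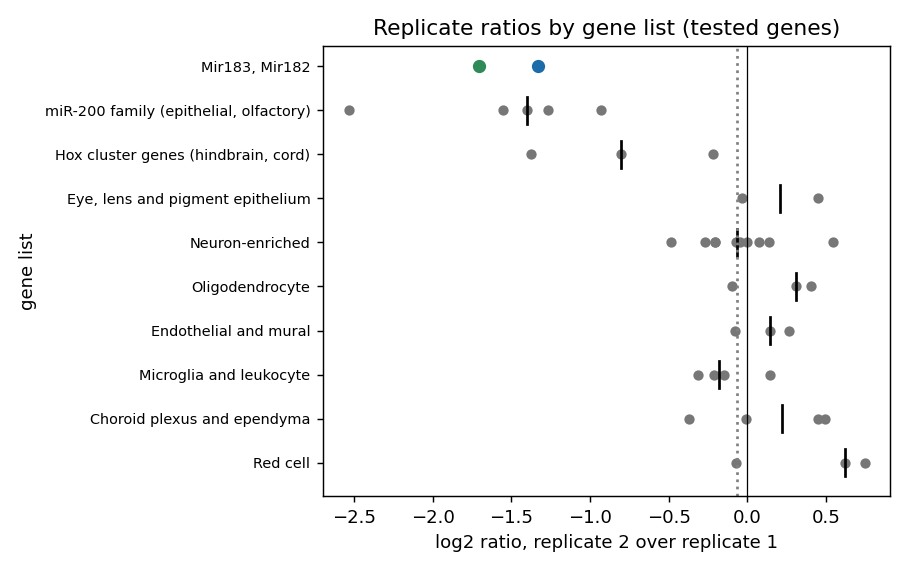
Log2 ratio of replicate 2 over replicate 1 for the tested genes of each list, 1 point a gene, with black bars at list medians and a dotted line at the median of all tested genes. Mir183 and Mir182 (top) and the median of the miR-200 family (-1.40) lie to the left of the medians of all other lists. Single genes overlap, since Mir196b of the Hox list (-1.38) lies to the left of Mir183 (-1.33).

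Other miRNAs with the same seed were looked for, because they could act on the same mRNAs. The seeds of miR-183-5p, miR-182-5p and their 3p arms occurred in no other mature miRNA of the RefSeq table. The seed of miR-96-5p is shared by miR-1271-5p, whose gene Gm24195 had 1 count in replicate 1 and 0 in replicate 2, under the level that a count of 0 allows. The seed of miR-96-3p is shared by miR-3475-5p, whose gene Mir3475 stood at 190.8 and 194.5 CPM, with a log2 ratio of 0.03 that did not pass the test.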

How the data were processed

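The deposited tables hold whole-number read counts per miRNA gene, not normalized and not pooled, 1 table per library, on build mm10 with GENCODE M21, per the deposited notes. The sources used here do not say how reads were trimmed and aligned. Each table has 3 columns of counts, whose roles (both strands, sense, antisense) were inferred from their totals. Sense counts were analysed. Reads mapping to several places were 45.9% of replicate 1 and 48.4% of replicate 2, and 11.8% and 11.2% were unmapped. These, and the 3.60% and 3.69% outside genes, were left out of library sizes. All 2202 identifiers were found in GENCODE M21.

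Levels, Wilson and exact binomial intervals, conditional odds ratios and Fisher's exact test per gene, at a threshold of 0.05 after Benjamini-Hochberg adjustment over all tested genes, were computed with scipy 1.17.1 in Python 3.11.15. The test was tested on simulated data that held counting error only, without spread between libraries. There, Fisher's exact test was run on counts without change, and known folds were tested with the exact binomial test. With 2 libraries in 1 group no model with replicate error could be fitted. Scaling by edgeR 4.0.16 (TMM) and DESeq2 1.42.0 (size factors), with an exact binomial test, was among the alternatives. The others were denominators without the most abundant gene or with all reads, minimums of 1 and 100 counts, no filter, pseudocounts of 1 and 5 CPM, thinning of replicate 2 to 4517648 counts, the column without regard to strand, and leaving out each library.

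The genes and lists were chosen with earlier results of these data known. Named are the 3 members, the 5 genes closest to them in replicate ratio, the next miRNA genes on chromosome 6, genes with the same seed and members of the 9 comparison lists. Mir185, Mir153 and Mir505 were named after their values were seen.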

Additional observations from a re-analysis of the deposited data

How the results depend on the processing

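Mir183 and Mir182 stayed lower in replicate 2 and past the threshold under all 11 alternatives that give a ratio, with log2 ratios from -1.39 to -1.26 for Mir183 and from -1.76 to -1.58 for Mir182. The summed log2 ratio ranged from -1.59, with all reads as denominator, to -1.46, with the deeper library thinned. Mir96 passed only where the minimum allowed its 3 counts (adjusted p = 1.1e-08 with a minimum of 1 count and 1.4e-08 with no filter, by Fisher's exact test), and its log2 ratio went from -3.01 with the deeper library thinned to -1.14 with a pseudocount of 5 CPM. The number of genes called was between 200 and 251, against 239. Leaving out a library gave a summed level of 86.8 or 249.9 CPM, and 1 library leaves no replicate ratio. Depth limits Mir96: in replicate 2 the ratio of Mir183 to Mir96 has an interval of 37.0 to 531.3.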
